A study of Arabidopsis thaliana with 18 samples.

Results

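AP3, PI, TT16, AG, SHP1, SHP2 and STK are the floral B-class and AGAMOUS-clade MADS-box genes of Arabidopsis thaliana, and their mRNA and H3K27me3 were followed in seedling shoots of 2 accessions, Col and C24, and of their F1 hybrid. They were chosen by name and gene ID, and they make up 7 of the 32992 genes with an mRNA value. mRNA was sequenced in clf mutants of F1, C24 and Col with 3 libraries each, and H3K27me3 was mapped by ChIP-seq in clf mutants of F1, C24 and Col with 1 library each and in wild-type F1, C24 and Col with 2 libraries each. Shoots were taken at 14 days, from plates with 1% sucrose grown in short days (8 h of light, 22 °C by day and 18 °C in the 16 h night). All mRNA groups lacked normal CLF function, and mRNA of wild-type shoots was not analysed here. The Col clf line carries the T-DNA insertion SALK_139371. The C24 clf line carries an ethyl methanesulfonate point mutation, a G-to-A change that puts N in place of D in the SET domain of CLF. F1 clf came from a cross of these lines and so holds both alleles. Accession and clf allele therefore differ together between C24 clf and Col clf, and what each adds cannot be told apart. Nothing in the labels tells whether libraries of a group stem from separately grown plants, so the p-values rest on a spread that may be technical.

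The B-class proteins AP3 and PI form a pair that specifies petals and stamens. AG specifies stamens and carpels and ends growth of the floral meristem. SHP1, SHP2 and STK are close relatives of AG: the SHP pair forms the zones where the fruit opens, and all act with AG in ovule identity. TT16, a relative of AP3 and PI, acts in the inner layer of the seed coat. Outside flowers and fruits these genes are known targets of the Polycomb repressive complex, of which CLF is a histone H3 lysine 27 methyltransferase. Leaves of clf mutants are known to express AG and AP3 ectopically and to curl.

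RPKM (reads scaled to transcript length and library size) are levels per length and can be compared between genes. The steps between low values corresponded to 14.75 to 24.1 M reads a library, at which 1 read on a transcript of 1 kb is worth 0.0415 to 0.0678 RPKM. An AT3G41979 transcript, a ribosomal RNA, took 14696 to 17796 RPKM in F1 clf replicates 2 and 3 and Col clf replicate 2, and 122 to 6359 RPKM in the other 6 libraries. CLF mRNA itself averaged 4.12 ± 0.213 RPKM in F1 clf, 7.56 ± 0.682 RPKM in C24 clf and 1.19 ± 0.191 RPKM in Col clf (SD, n = 3 each). All 5 leaf markers were abundant, with a summed level of 26739 to 35301 RPKM over the 9 libraries. The 8 anther markers summed to at most 0.28 RPKM in any library.

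Of the B-class pair, AP3 (AT3G54340, chromosome 3) had 1.60, 1.18 and 1.44 RPKM in F1 clf replicates 1, 2 and 3, 4.33, 2.91 and 4.75 RPKM in C24 clf and 0.53, 0.41 and 0.30 RPKM in Col clf. The C24 clf libraries were highest and the Col clf libraries lowest, and the 3 groups did not overlap. PI (AT5G20240, chromosome 5) had 2.94, 3.01 and 3.69 RPKM in F1 clf, 8.05, 9.48 and 12.51 RPKM in C24 clf and 2.0, 1.39 and 1.48 RPKM in Col clf. Its groups did not overlap either, and F1 clf stood nearer to Col clf than to C24 clf. TT16 (AT5G23260, chromosome 5) was listed at 0, 0.05 and 0.05 RPKM in F1 clf, at 0.18, 0 and 0.07 RPKM in C24 clf and at 0 in all 3 Col clf libraries. That is the level of a few reads, and TT16 did not pass the filter of 1 RPKM in at least 3 libraries that preceded the tests.

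AG (AT4G18960, chromosome 4) was the most abundant of the 7, with 36.65, 33.53 and 33.69 RPKM in F1 clf, 40.92, 38.11 and 42.70 RPKM in C24 clf and 24.31, 21.96 and 26.87 RPKM in Col clf. All F1 clf libraries lay below all C24 clf libraries and above all Col clf libraries. SHP1 (AT3G58780, chromosome 3) had 1.16, 1.31 and 1.32 RPKM in F1 clf, 2.82, 2.71 and 3.41 RPKM in C24 clf and 0.50, 0.90 and 0.86 RPKM in Col clf. Its paralog SHP2 (AT2G42830, chromosome 2) had 5.14, 4.10 and 4.39 RPKM in F1 clf, 5.86, 7.49 and 7.79 RPKM in C24 clf and 3.65, 3.18 and 3.06 RPKM in Col clf. Both SHP genes were highest in C24 clf and lowest in Col clf, with no overlap between groups. STK (AT4G09960, chromosome 4), which acts in ovules and seed release, had 1.14, 1.25 and 1.28 RPKM in F1 clf, 2.99, 1.96 and 2.59 RPKM in C24 clf and 0.24, 0.47 and 0.27 RPKM in Col clf. The same order held for STK, again without overlap.

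**Figure D1:**
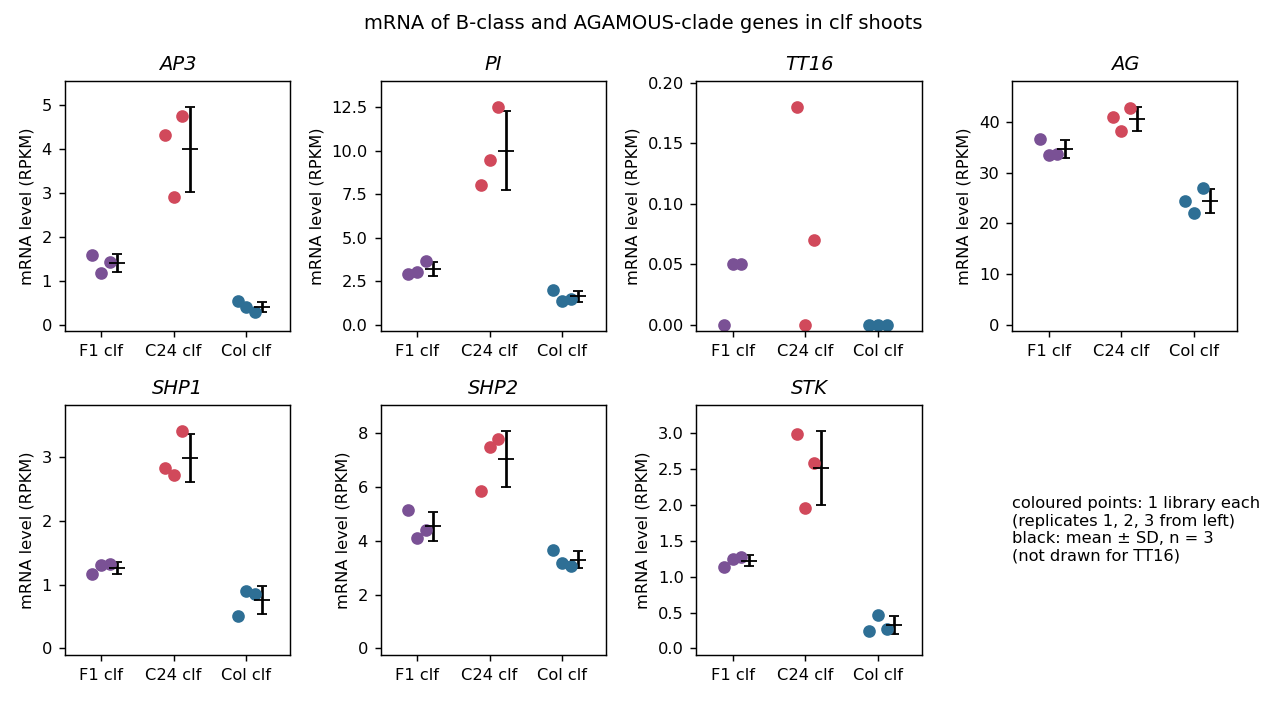
mRNA level in RPKM (vertical axes, from 0) of the 7 genes in F1 clf, C24 clf and Col clf. Coloured points are libraries and black bars are mean ± SD of 3 libraries, left out for TT16, and in the other 6 genes every C24 clf point lies above every F1 clf point and every F1 clf point above every Col clf point.

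Within each group the order of levels began with AG and ended with TT16. In F1 clf, AG at 34.6 ± 1.76 RPKM was followed by SHP2 at 4.54 ± 0.537 RPKM and PI at 3.21 ± 0.414 RPKM (SD, n = 3 each). In C24 clf, AG averaged 40.6 ± 2.31 RPKM, and PI at 10.01 ± 2.28 RPKM stood above SHP2 at 7.05 ± 1.04 RPKM. In Col clf, AG averaged 24.4 ± 2.46 RPKM, SHP2 3.30 ± 0.312 RPKM and PI 1.62 ± 0.329 RPKM. Libraries of these neighbours did not overlap in any group, so PI and SHP2 stood in opposite order in C24 clf and in the other groups. AP3, SHP1 and STK came next. They averaged 1.41 ± 0.212, 1.26 ± 0.0896 and 1.22 ± 0.0737 RPKM in F1 clf, and each of them overlapped the next in level. In C24 clf they averaged 4.0 ± 0.964, 2.98 ± 0.376 and 2.51 ± 0.519 RPKM, and in Col clf 0.413 ± 0.115, 0.753 ± 0.220 and 0.327 ± 0.125 RPKM. Neighbours among these 3 genes overlapped in every group.

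PI and AP3 proteins work as a pair, and PI mRNA was above AP3 mRNA in all 9 libraries. The ratio of PI to AP3 levels was 1.84, 2.55 and 2.56 in F1 clf, 1.86, 3.26 and 2.63 in C24 clf and 3.77, 3.39 and 4.93 in Col clf. Col clf libraries all had a higher ratio than the other 6 libraries, at AP3 levels below 1 RPKM. SHP2 was above SHP1 in all 9 libraries, by 4.43, 3.13 and 3.33 times in F1 clf, 2.08, 2.76 and 2.28 times in C24 clf and 7.30, 3.53 and 3.56 times in Col clf. The C24 clf ratios were the lowest and did not overlap those of the other groups. SHP1 and SHP2 are similar in sequence, and how reads that match both were counted is not stated, so their split is uncertain.

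C24 clf was set against Col clf to see how the parental mutants differ. AP3 was 9.67-fold, STK 7.69-fold, PI 6.17-fold and SHP1 3.96-fold higher in mean RPKM in C24 clf than in Col clf. SHP2 was 2.14-fold and AG 1.66-fold higher. On the log2(RPKM + 1) scale, which understates the change of low genes, PI was higher by 2.06 (SE 0.146, limma adjusted p 5.25e-07) and AP3 by 1.81 (SE 0.146, adjusted p 1.56e-06). AG, the most abundant, was higher by 0.72 (SE 0.0828, adjusted p 3.18e-05). For STK, SHP1 and SHP2 the differences were 1.40, 1.19 and 0.90, with adjusted p of 4.36e-06, 1.04e-05 and 6.74e-05. Over all 17819 tested genes the median difference was 0.13, and 31.8% were called higher in C24 clf, with 40.0% having all C24 clf libraries above all Col clf libraries. Calls higher in C24 clf were thus common. AP3, SHP1 and STK passed the filter only through their C24 clf and F1 clf libraries, so no weight rests on a count over the tested members. PI, AG and SHP2 were above 1 RPKM in all 9 libraries. Each of the 6 differences kept its direction and its call in all 14 or 15 other settings in which the gene was fitted. Without any filter, TT16 differed by 0.11 (adjusted p 0.14).

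Reads were placed on the Col-derived TAIR10 sequence, and how far C24 sequence differences change C24 levels was not tested. In whole shoots, fewer cells of a type and less RNA per cell cannot be told apart.

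The F1 clf hybrid lay between its parents for all 6 tested genes. How many of all tested genes did so, with or without overlap, was not counted, so no weight rests on this. Against C24 clf, PI fell by 1.37 (SE 0.146, limma adjusted p 4.98e-05) and AP3 by 1.04 (SE 0.146, adjusted p 3.63e-04). SHP1, STK and SHP2 fell by 0.81, 0.65 and 0.53 against C24 clf (adjusted p 4.98e-04, 0.00268 and 0.00432). Of all tested genes, 35.8% were called lower in F1 clf than in C24 clf, and 44.1% had all F1 clf libraries below all C24 clf libraries. AG was lower by 0.22 (SE 0.0828), at an adjusted p of 0.0485 next to the threshold. The AG call was lost without Col clf replicate 1 (0.0643), C24 clf replicate 1 (0.105) or 3 (0.156), or F1 clf replicate 2 (0.137) or 3 (0.127), and it held in 6 of 15 other settings. Without the 3 libraries richest in ribosomal RNA, a setting that leaves 1 F1 clf library, the calls of AG (0.405), SHP2 (0.189) and STK (0.0578) were lost.

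Against Col clf, AP3 rose by 0.77 (SE 0.146, limma adjusted p 0.00498), STK by 0.75 (SE 0.127, adjusted p 0.00246), PI by 0.69 (SE 0.146, adjusted p 0.00989) and AG by 0.49 (SE 0.0828, adjusted p 0.00229) in F1 clf. SHP1 and SHP2 differed by 0.38 and 0.37 and did not pass, at adjusted p of 0.066 and 0.0615. With the replicate number as a block they passed, at 0.0336 and 0.0498, in a fit that also raised the calls over all genes. SHP2 also passed without C24 clf replicate 1, at 0.0391, and with quantile normalization, at 0.0193. Over all tested genes 4.98% were called higher in F1 clf than in Col clf in the fit without the block. All F1 clf libraries lay above all Col clf libraries in 10.0%. Without the ribosomal RNA-rich libraries none of these 4 calls was kept (adjusted p 0.11, 0.0955, 0.329 and 0.0554 for AP3, STK, PI and AG). The differences were then 0.88, 0.77, 0.53 and 0.50.

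The hybrid was then set against the arithmetic mean of its parents, the level of an additive hybrid. PI stood at 3.21 ± 0.414 RPKM in F1 clf (SD, n = 3) against a mid-parent of 5.82 RPKM. It was lower than the mid-parent by 0.68 (SE 0.134, limma adjusted p 0.0182), whereas 6.36% of all tested genes were called lower and 0.37% higher. AP3 had 1.41 RPKM in F1 clf against a mid-parent of 2.21 RPKM, a difference of -0.40 (SE 0.133, adjusted p 0.078). SHP1 had 1.26 RPKM against a mid-parent of 1.87 RPKM, a difference of -0.34 (SE 0.106, adjusted p 0.0707). Neither passed, although with the replicate number as a block both did, at adjusted p of 0.0301 and 0.0316. All 3 F1 clf libraries of PI, AP3 and SHP1 lay below every pairwise mean of a C24 clf and a Col clf library. The share of all tested genes that did so was not counted, so no weight rests on this order.

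SHP2, STK and AG did not differ from the mid-parent beyond the error. Their differences were -0.15, -0.11 and 0.09, with adjusted p of 0.294, 0.485 and 0.381. Counted from the Col clf mean to the C24 clf mean in RPKM, F1 clf lay at 19.0% of the way for PI, 22.9% for SHP1, 27.7% for AP3, 33.2% for SHP2, 41.0% for STK and 63.2% for AG. The median difference from the mid-parent over all tested genes was -0.12. The PI call was lost without F1 clf replicate 2 (adjusted p 0.0795), with no filter (0.0524), with quantile normalization (0.0777) and without the ribosomal RNA-rich libraries (0.432), and AP3 passed without C24 clf replicate 2 (0.0353). Over all genes the count of calls against the mid-parent was 1199, and 4472 with the replicate number as a block.

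**Figure D2:**
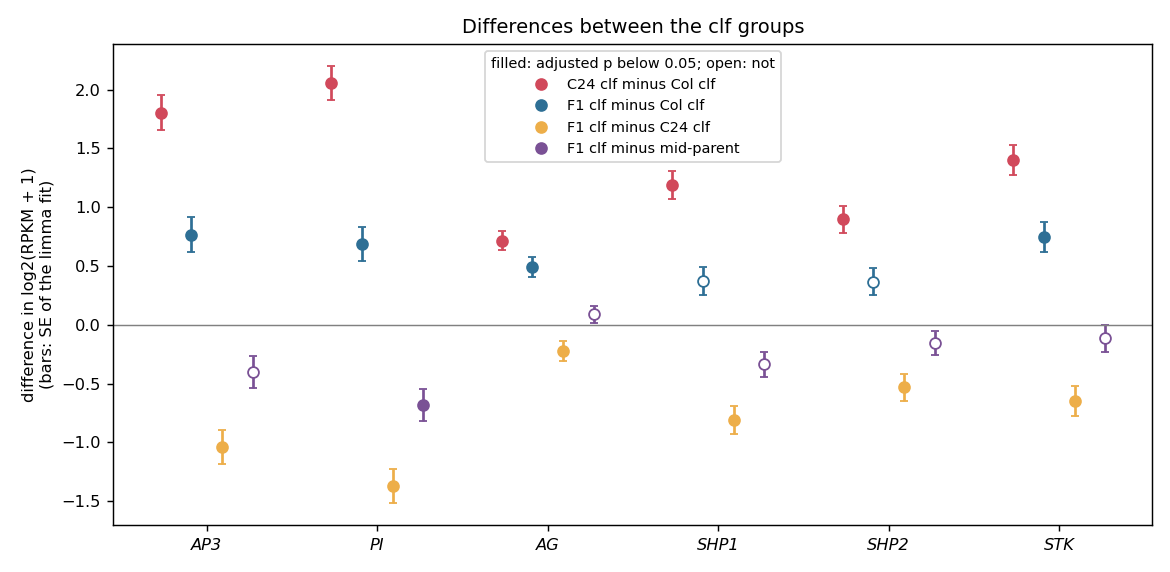
Differences in log2(RPKM + 1) between clf groups for the 6 tested genes, with bars of 1 SE from the limma fit, filled where the adjusted p is below 0.05. C24 clf minus Col clf lies above 0 for all 6, F1 clf minus C24 clf below 0 for all 6, and F1 clf minus mid-parent is filled for PI at -0.68.

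Likeness of pattern was measured as the root mean square difference of gene-centred log2(RPKM + 1) over the 9 mRNA libraries. The values were not scaled, so the measure reflects the size of the differences between groups as well as their order. Among the members the closest pair was AG and SHP2, at 0.188, then SHP1 and STK at 0.195. SHP1 and SHP2 were 0.227 apart and AP3 and PI 0.236 apart. PI and AG were farthest apart, at 0.619. Outside the family, the genes nearest to AP3 were AT4G00960 (0.112), the amino acid transporter family gene UMAMIT33 (0.127) and AT2G07750 (0.14). UMAMIT33 averaged 11.05 RPKM in F1 clf, 25.4 RPKM in C24 clf and 6.22 RPKM in Col clf. Nearest to PI were AT3G27473 (0.135), the beta-amylase family gene BMY3 (0.163) and RGL1 (0.18), a DELLA repressor of gibberellin responses. RGL1 averaged 3.67 RPKM in F1 clf, 10.13 RPKM in C24 clf and 1.73 RPKM in Col clf, levels close to those of PI.

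AG had closer neighbours: AT1G05860 (0.0725), AT1G64150 (0.0786) and NF-YA10 (0.0792), a nuclear factor Y subunit. AT1G64150 averaged 52.7 RPKM in F1 clf, 64.5 RPKM in C24 clf and 37.4 RPKM in Col clf. Nearest to SHP2 were HAT2 (0.0801), a homeodomain-leucine zipper gene, PEX11E (0.0807), a peroxisome division gene, and AT5G47860 (0.0875). HAT2 averaged 38.1 RPKM in F1 clf, 57.0 RPKM in C24 clf and 30.6 RPKM in Col clf. For SHP1 the nearest were AT5G56040 (0.084), AT5G42440 (0.0911) and AT5G46440 (0.0983), and for STK NSP4 (0.101), a nitrile-specifier protein gene, AT2G28780 (0.113) and AT1G47271 (0.119). None of these 18 was another of the 7 genes, among 17818 genes compared with each member.

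B-class and AGAMOUS-clade proteins bind DNA in complexes with SEPALLATA proteins. Of the 10 partner MADS-box genes listed, 3 passed the filter, SEP3, SEP4 and SEP1, and all 3 were higher in C24 clf than in Col clf, where 31.8% of all tested genes were. SEP1 was below 1 RPKM in all Col clf libraries and in 2 of 3 F1 clf libraries, so the filter favoured a difference of that sign. With no filter 6 of the 10 were called. SEP3, the most abundant, had 129, 108 and 130 RPKM in F1 clf, 256, 240 and 285 RPKM in C24 clf and 47.8, 47.2 and 61.5 RPKM in Col clf, and rose by 2.30 (limma adjusted p 1.59e-08). SEP3 thus exceeded AG in every library. SEP1 rose by 1.26, at 2.41 ± 0.0907 RPKM in C24 clf and 0.433 ± 0.269 RPKM in Col clf, and SEP4 by 0.40, at 20.7 ± 1.53 and 15.5 ± 1.78 RPKM (SD, n = 3 each). The A-class gene AP1 reached at most 0.38 RPKM in any library. None of the 3 tested partners passed against the mid-parent, while 2 did with the replicate number as a block, 2 without F1 clf replicate 1, and 1 of the list with no filter. The block and the fit without F1 clf replicate 1 also raised the calls over all genes.

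Of 11 activators of the B and C genes, 8 were tested and 2 were higher in C24 clf than in Col clf, a share near the 31.8% of all tested genes. These were the chromatin remodeller gene SYD, at 18.3 ± 0.862 RPKM in C24 clf and 13.2 ± 0.58 RPKM in Col clf, and HUA2, an RNA-processing gene needed for AG, at 14.2 ± 0.816 and 11.7 ± 0.809 RPKM (SD, n = 3 each). SYD rose by 0.44 (limma adjusted p 7.1e-04) and HUA2 by 0.26 (adjusted p 0.0192). HUA2 passed in 9 of 15 other settings. It did not pass without Col clf replicate 1 or 2 or C24 clf replicate 2 or 3 (adjusted p 0.0567 to 0.0745), without the ribosomal RNA-rich libraries (0.0727) or with quantile normalization (0.126). The activators below the filter, named after their values were seen, were LFY, UFO and WUS. LFY, which switches on AP3 and AG in flowers, reached at most 0.1 RPKM in any library, its cofactor UFO at most 0.16 RPKM and the stem cell gene WUS at most 0.04 RPKM.

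Among 16 repressors of these genes, 14 were tested and 7 were higher in C24 clf than in Col clf, against 31.8% of all tested genes, with a median difference of 0.22. The 7 include CLF, the mutated gene itself. Its allele differs between these groups, so its call cannot be told apart from the allele. With the replicate number as a block 10 were called. Besides CLF they included the Polycomb gene EMF1, which rose by 0.96 (limma adjusted p 2.04e-06) to 13.2 ± 0.730 RPKM in C24 clf, against 6.30 ± 0.159 RPKM in Col clf (SD, n = 3 each). SWN, a methyltransferase gene related to CLF, rose by 0.89 (adjusted p 1.21e-06) to 26.8 ± 0.645 RPKM in C24 clf, against 14.0 ± 0.312 RPKM in Col clf. None of the repressors was called lower in C24 clf. The share of all tested genes called lower is not given here, so no weight rests on this. Against the mid-parent EMF1 and BEL1, a homeobox gene that limits AG in ovules, were lower in F1 clf by 0.36 and 0.32 (adjusted p 0.0174 and 0.0336). BEL1 passed in 6 and EMF1 in 12 of 15 other settings. Both calls were lost without F1 clf replicate 2 (BEL1 0.127, EMF1 0.0798) or 3 (0.118 and 0.0912), and that of BEL1 also without Col clf replicate 1 (0.0601) or C24 clf replicate 1, 2 or 3 (0.0529, 0.0644 and 0.0733). With the replicate number as a block, 4 of the 14 passed against the mid-parent, and 4 also did so without F1 clf replicate 1. Both settings also raised the calls over all genes, so no weight rests on these counts.

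Of 21 genes listed downstream of the B and AG-clade genes, 7 were tested and 6 were higher in C24 clf than in Col clf, against 31.8% of all tested genes, with a median difference of 0.73. With the replicate number as a block 7 were called. Leading them were genes of the fruit's opening zone, which SHP proteins switch on. ALC had 12.96, 11.25 and 9.82 RPKM in F1 clf, 25.8, 29.5 and 24.8 RPKM in C24 clf and 6.13, 5.62 and 5.14 RPKM in Col clf, and rose by 2.06 (limma adjusted p 2.75e-08) in C24 clf against Col clf. IND had 1.42 ± 0.225 RPKM in C24 clf and 0.0533 ± 0.0115 RPKM in Col clf (SD, n = 3 each), a rise of 1.20 (adjusted p 1.24e-05). The organ growth gene JAG rose by 0.74 (adjusted p 3.66e-04), at 1.29 ± 0.177 RPKM in C24 clf and 0.373 ± 0.107 RPKM in Col clf. IND and JAG passed the filter only through C24 clf. ALC was lower than the mid-parent in F1 clf by 0.48 (adjusted p 0.0201). That call held in 10 of 15 other settings. The settings that lost it included those without C24 clf replicate 2 (0.0506), F1 clf replicate 2 (0.0786) or 3 (0.0996), or the ribosomal RNA-rich libraries. With the replicate number as a block, 2 downstream genes and 2 activators passed against the mid-parent. The block also raised the calls over all genes, as given above, so no weight rests on these counts. The 4 lists were written with earlier results of these data known.

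**Figure D3:**
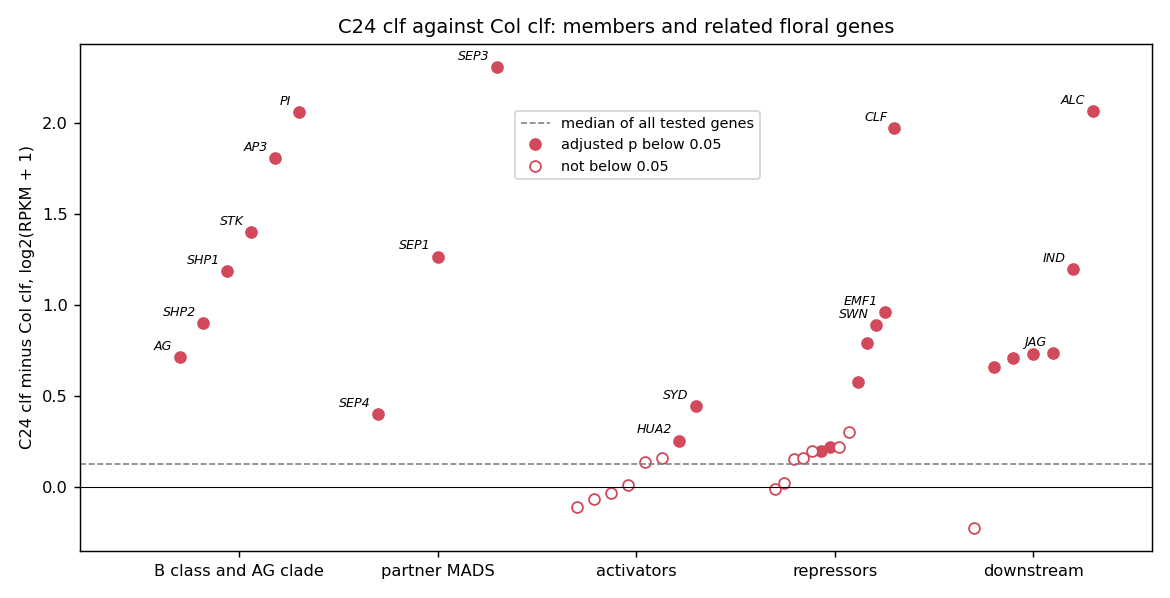
C24 clf minus Col clf difference in log2(RPKM + 1) for each tested gene of 5 groups, ordered by size within a group. Filled points have an adjusted p below 0.05, the dashed line is the median of all tested genes at 0.13, and all points of the B-class and AGAMOUS-clade group, from 0.72 for AG to 2.06 for PI, lie above it.

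Markers of other organs were read beside these genes. Of 8 anther markers, 5 to 8 were at 0 in each library, and their sum was 0 to 0.06 RPKM in F1 clf, 0.03 to 0.18 RPKM in C24 clf and 0.06 to 0.28 RPKM in Col clf. The anther markers MS1, ATA7 and MYB80 were at 0 in all 9 libraries. The 8 seed storage and oil body genes summed to 2.9 to 60.0 RPKM in F1 clf, 76.9 to 210 RPKM in C24 clf and 0.33 to 3.91 RPKM in Col clf, mostly from CRU3 and CRA1. This sum was highest in the group in which the 6 members were highest, with 2 to 6 of the 8 genes at 0 in each library. Root markers summed to 130 to 148 RPKM in F1 clf, 210 to 216 RPKM in C24 clf and 94.2 to 107 RPKM in Col clf, nearly all from PYK10. The 5 root hair genes of that list averaged at most 0.0267 RPKM in any group. Leaf markers summed to 35229 to 35301 RPKM in F1 clf, 26739 to 30658 RPKM in C24 clf and 33166 to 35000 RPKM in Col clf, lowest in C24 clf. The part of these organs in the results was not tested.

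The counted strand is not stated. Reads of overlapping genes therefore cannot be told apart. The STK span overlaps AT4G09950, at 3.67 RPKM in F1 clf, 5.32 RPKM in C24 clf and 3.90 RPKM in Col clf, and the SHP1 span overlaps the galacturonosyltransferase gene GAUT15, at 5.50, 7.89 and 6.18 RPKM in the same groups. These differed between C24 clf and Col clf by 0.38 and 0.32 (limma adjusted p 0.0304 and 0.0381). SHP2 overlaps the noncoding gene AT2G42835, which averaged 0.543 RPKM in F1 clf, 0.677 RPKM in C24 clf and 0.360 RPKM in Col clf. Next to PI lies BCB, a blue copper-binding protein gene, with 50.7 RPKM in C24 clf and 15.2 RPKM in Col clf, a difference of 1.63 (adjusted p 1.1e-04). Next to AP3 lies emb1967, which differed by 0.11 (adjusted p 0.348), and next to AG AT4G18970, which differed by -0.19 (adjusted p 0.0877).

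H3K27me3 peaks were called by the authors for each library, and a peak's tags, score and fold enrichment are the authors' own values. The lists held 6324, 6377 and 5963 peaks in F1 clf, C24 clf and Col clf, 5831 and 4061 in wild-type F1 replicates 1 and 2, 6258 and 6339 in wild-type C24, and 4851 and 2898 in wild-type Col. Tags in peaks came to 3369197 to 4109450 in clf lists, 5243058 to 8274871 in the first wild-type replicates and 860902 to 1896554 in the second. The wild-type replicates thus differed widely in tags, and with 1 clf library per group no test was made. Peaks from different lists are set side by side here as calls, not as amounts of the mark.

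All 7 genes were overlapped by a peak in F1 clf, C24 clf and Col clf, where 23.2%, 22.2% and 21.9% of protein-coding genes had a peak. In wild-type F1, 5 of the 7 had a peak in replicates 1 and 2, against 24.4% and 14.5% of protein-coding genes. In wild-type C24, 5 had a peak in replicate 1 and 7 in replicate 2, against 23.8% and 19.3%. In wild-type Col, 5 had a peak in replicate 1 and 7 in replicate 2, against 24.2% and 9.13%. AP3, PI, TT16, SHP1 and SHP2 carried a peak in all 9 lists, as did 5.0% of the 27444 protein-coding genes, and the genes without one in some wild-type lists were AG and STK.

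AP3 was covered over 100% of its length in 8 lists, and over 47.1% in wild-type C24 replicate 2, the list with the fewest tags. In F1 clf its peak was chr3:20118858-20121636, in C24 clf chr3:20118844-20121637 and in Col clf chr3:20118781-20121580 (TAIR10). Counted from the gene's low-numbered end, with negative values outside the gene, these peaks began at -0.282, -0.296 and -0.359 kb, so they differed little between the 3 clf groups. Fold enrichment was 7.96, 7.17 and 6.82 in F1 clf, C24 clf and Col clf, against medians of 5.45, 5.66 and 5.06 for the peaks of those lists. TT16 was likewise covered over 100% in the 3 clf lists and in 4 wild-type lists, with fold enrichment of 7.09, 7.16 and 6.30 in F1 clf, C24 clf and Col clf. Wild-type C24 replicate 2 covered 87.8% and wild-type Col replicate 2 74.9% of TT16.

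PI was covered over 99.0%, 100% and 100% of its length in F1 clf, C24 clf and Col clf. It was covered over 100% in the first wild-type replicate of each accession and over 94.2%, 44.6% and 91.2% in the second replicates of F1, C24 and Col. Its clf peaks were 3261 to 3388 bases long and began at -0.711 to -0.676 kb. Those of the first wild-type replicates were 5449 to 5786 bases long and began at -2.80 to -2.59 kb. In the second wild-type replicates PI peaks were 1415 to 3288 bases long, so the clf lengths lay within the range of wild type. PI peaks were near the median fold of their lists, at 5.23, 5.91 and 5.16 in F1 clf, C24 clf and Col clf. PI had the widest difference in mRNA on the log2(RPKM + 1) scale, though AP3 and STK had a wider one in fold of mean RPKM. Its peak call was nearly the same in C24 clf (chr5:6828193-6831580) and in Col clf (chr5:6828226-6831570).

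AG differed most between lists. Peaks covered 37.6% of the gene in F1 clf, 20.4% in C24 clf and 97.7% in Col clf. In wild type, cover was 0 in both F1 libraries, 0 and 25.8% in C24 replicates 1 and 2, and 0 and 82.2% in Col replicates 1 and 2. The Col clf peak, chr4:10382923-10388476, was 5554 bases long with 995 tags and a score of 406. In C24 clf the peak chr4:10383192-10384352 was 1161 bases long with 124 tags and a score of 108, and F1 clf had a pair of short peaks with scores of 99.98 and 55.7. Every deposited peak had a score of at least 50, so the F1 clf and C24 clf calls stood close to the lowest score. With a score of at least 100, F1 clf had a peak over 6 of the 7 genes, all but AG, and C24 clf and Col clf over 7. Wild-type C24 replicate 2 then had a peak over 4 and wild-type Col replicate 2 over 5. No wild-type peak was left over AG or STK, and none over SHP2 in wild-type C24 replicate 2. How many of all genes had a peak at that score was not counted. In the clf lists AG cover was lowest in C24 clf, where AG mRNA was highest, and highest in Col clf, where its mRNA was lowest, with 1 ChIP library per group. C24 clf also had the fewest tags in peaks of the clf lists. AG cover was also lower in C24 than in Col in the second wild-type replicates, and 0 in both in the first. Wild-type C24 replicate 2 had the fewest tags in peaks of all lists. It also covered less of AP3, PI, SHP1, SHP2 and STK than wild-type Col replicate 2, though more of TT16. Whether AG cover and AG mRNA are linked was not tested.

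STK had a peak over 49.4%, 48.4% and 50.7% of its length in F1 clf, C24 clf and Col clf. The clf peaks began 2.42 to 2.53 kb from the low-numbered end and ran 1.25 to 1.79 kb past the high-numbered end, so they covered the same part of the gene in all 3. In wild type, cover was 0 in F1 replicates 1 and 2, 0 and 15.8% in C24 replicates 1 and 2, and 0 and 48.9% in Col replicates 1 and 2. STK was thus above both wild-type libraries in every accession, and AG in F1 and Col.

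AG and STK had no peak in the first wild-type replicates of F1, C24 and Col. The longest peak of any list was 9312 bases. In wild-type Col replicate 1, 122 peaks had 8 to 9 kb and 11 had 9 to 10 kb. The nearest peak to AG lay 8.37 to 8.63 kb away in these 3 lists, and that to STK 6.01 to 6.93 kb away. Among the other listed genes AP1, FUL, WUS, JAG, GNC, CRU3 and RHD6, picked out after their values were seen, likewise had cover in all 3 clf lists and 0 in the first wild-type replicates of F1, C24 and Col. This pattern was found in 400 of 27444 protein-coding genes (1.46%), of which 267 had a peak in at least 1 second wild-type replicate. Whether wider peaks were left out of the lists was not tested, so cover of 0 in these lists does not show that the mark was low.

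SHP1 and SHP2 had shorter peaks in clf than in the first wild-type replicates. SHP1 was covered over 44.2%, 50.3% and 45.8% of its length in F1 clf, C24 clf and Col clf. In wild type it was covered over 85.5% and 62.0% in F1 replicates 1 and 2, 87.0% and 24% in C24, and 91.7% and 34.4% in Col. For SHP2 the cover was 60.3%, 61.3% and 60.0% in F1 clf, C24 clf and Col clf. Wild-type cover of SHP2 was 100% and 90.8% in F1 replicates 1 and 2, 100% and 24.5% in C24, and 100% and 57.4% in Col. Cover in F1 clf was below both wild-type F1 libraries for both genes, while C24 clf and Col clf lay between their wild-type libraries.

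Both SHP genes kept their clf peak over the low-numbered part of the gene. SHP1 peaks were 1926, 2307 and 1995 bases long in F1 clf, C24 clf and Col clf, with folds of 9.66, 7.69 and 9.08. SHP2 peaks were 2351, 2440 and 2340 bases long, with folds of 8.17, 6.13 and 7.67. These folds were above the median of their lists in all 3. In the first wild-type replicates SHP2 lay in peaks of 7611 to 7627 bases that began at -3.09 to -3.01 kb from the low-numbered end.

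**Figure D4:**
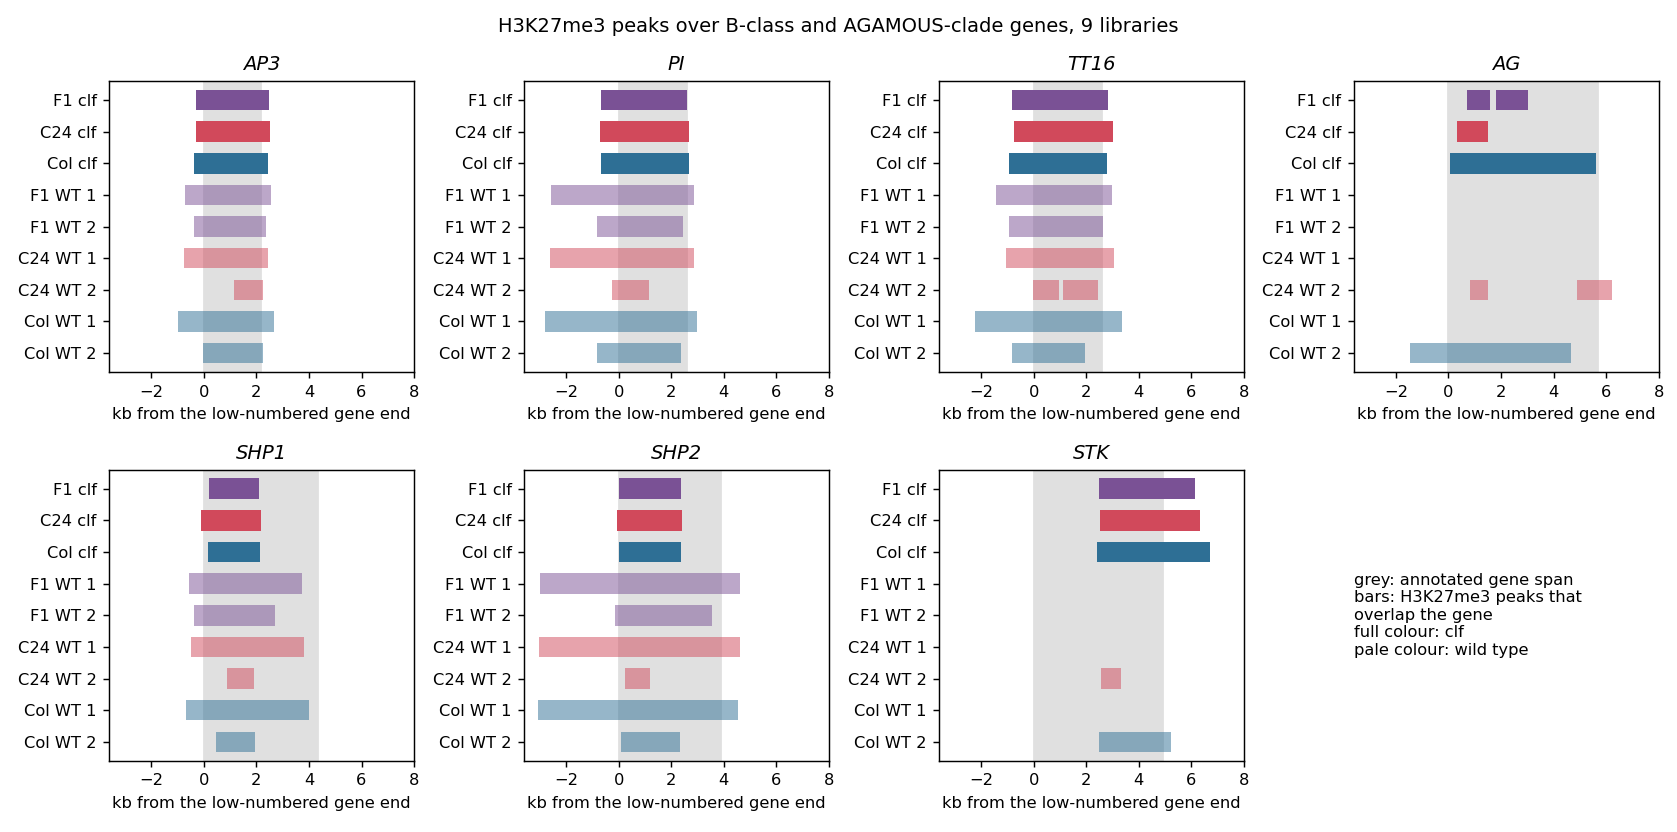
Position of H3K27me3 peaks over the 7 genes in 9 libraries, with F1 clf at the top of each panel and wild-type Col replicate 2 at the bottom, in kb from the low-numbered gene end. Grey marks the gene span, full colour clf and pale colour wild type: AP3, PI and TT16 are covered in all rows, AG is covered over 97.7% in Col clf and over 20.4% in C24 clf, and the SHP1 and SHP2 clf peaks end within the gene.

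The related genes had their own pattern of peaks. Of the 10 partner MADS-box genes 8 had a peak in each clf list, among them SEP3, covered over 100%, 76.7% and 100% in F1 clf, C24 clf and Col clf. Of the 21 downstream genes 15 had a peak in each clf list. Over all protein-coding genes, 18.4% had a peak in all 3 clf lists. IND was covered over 100% in the 3 clf lists, while ALC had no peak in any of the 9 lists. SEP3, PI, AG and SHP2 held mRNA above 1 RPKM in all mRNA libraries of shoots in which a peak was called over the gene. Other listed genes, among them EMF1 and SEP4, did so too, and the share over all genes was not counted. Peaks come from a mixture of cells, and whether the mRNA and the mark came from the same cells was not tested.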

How the data were processed

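Gene levels are RPKM values deposited by the authors, 1 table per mRNA library. Per the submitters' processing notes TopHat and Bowtie were used with the TAIR10 build; for the read counter, gene models and peak caller nothing is given in the sources used here. Peak tables deposited by the authors give, for each peak, a tag count, a score whose column name is damaged and whose scale is not given, and a fold enrichment, which is a ratio. IDs listed more than once (567) were dropped, leaving 32992 genes. Any pair of mRNA libraries had at most 0.971% identical values. Whole-read steps of low values in genes of at most 400 bases gave relative depth: 67.2 to 75.7% of values of at most 4 reads lay within 4% of a whole number.

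Levels were analysed as log2(RPKM + 1) with limma 3.58.1 in R 4.3.3, with trended moderation over 17819 genes at or above 1 RPKM in at least 3 of 9 libraries. A single fit over F1 clf, C24 clf and Col clf gave all comparisons, which share libraries, with Benjamini-Hochberg adjustment over all tested genes and a threshold of 0.05. The mid-parent is the arithmetic mean of parental RPKM, with a delta-method error. Same-numbered libraries deviated together (9 correlations of 0.169 to 0.426 over genes), and differently numbered ones did not, so the numbers were taken to pair the libraries and a fit with the number as a block was added. The blocked value stands beside a result where it changes a member's call or moves a count by over 1.5 times.

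A peak counted for a gene when it overlapped its span by at least 1 base. Spans came from RefSeq on TAIR10.1, whose nuclear chromosomes were taken as those of TAIR10. The members and all gene lists were chosen with earlier results of these data known. Named are all 7 members, the 3 highest and 3 lowest called genes of each other list, and the 3 genes nearest in pattern to each member, and genes at or near 0 were named after their values were seen. Alternatives were the pseudocount, the filter, quantile normalization, the block, leaving out libraries, a score of at least 100, an overlap of 50% of the gene and 1 kb of flank.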

Additional observations from a re-analysis of the deposited data

How the results depend on the processing

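The higher levels of PI, AP3, STK, SHP1, SHP2 and AG in C24 clf than in Col clf kept their direction and call in every setting run that tested them, and the filter of 5 RPKM left 3 of them tested (3 called, of 6 in the reported fit). The comparisons of the hybrid depended more on the settings. Members called against the mid-parent were 0 in place of 1 with no filter on low values, 0 with quantile normalization and 0 to 2 when 1 library was left out. With the replicate number as a block they were 3. Over all genes that count was 1199 as reported, 553 with no filter, 393 with quantile normalization, 4472 with the block, and 179 to 3362 when 1 library was left out, lowest without F1 clf replicate 3 and highest without F1 clf replicate 1. Leaving out F1 clf replicate 2 gave 214, Col clf replicate 1 gave 612 and replicate 3 gave 619, and C24 clf replicate 2 gave 621 and replicate 3 gave 455. The SHP2 difference from the mid-parent, not called in any setting, had the opposite sign with quantile normalization (0.000574). For F1 clf against Col clf the 5 RPKM filter gave 2 called members in place of 4, and over all genes calls were 2140 as reported, 3551 with the block and 1400 to 2284 when 1 library was left out, fewest without Col clf replicate 3 (1400) or 1 (1410). For F1 clf against C24 clf the 5 RPKM filter gave 3 in place of 6, and over all genes calls were 7558 as reported, 4711 with quantile normalization and 5005 to 8476 when 1 library was left out, fewest without F1 clf replicate 3 (5005) or C24 clf replicate 3 (5038). The pairing block changed no call of a member beside those given in the report. A setting added after the data were seen left out the 3 libraries richest in ribosomal RNA, with the lone F1 clf library assumed to vary like the others. It gave 0 called members against the mid-parent (3 genes in all), 0 against Col clf (565 genes) and 3 against C24 clf (1589 genes). Apart from the smaller numbers of genes or libraries in the filters and left-out libraries, the cause was not tested. The 5 RPKM filter leaves AP3, SHP1 and STK untested. Requiring an overlap of 50% of the gene left 4 members with a peak in F1 clf in place of 7. In wild-type C24 it left 3 in place of 6 (mean of both libraries). That setting gives no covered share, and the share of all genes that met it is not given here. With 1 kb added on each side the median covered share was 49.6% in F1 clf, 48.8% in C24 clf, 67.1% in Col clf and 70.3% in wild-type F1, in place of 60.3%, 61.3%, 97.7% and 95.4%. Depth limits TT16, at a few reads, and the second wild-type peak lists.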
